A study of Mus musculus with 13 samples.

Results

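A class of 441 peaks listed for the fusion protein NUP98-PHF23 (NP23) in the mouse leukaemia cell line 961C lay in neither of the histone marks mapped in the same line. The 441 peaks, called unmarked below, were selected on their overlap in 961C: not 1 bp was shared with an H3K4me3 peak or with an H3K27me3 peak. They made up 27.1% of the 1629 NP23 peaks listed for 961C and 7.65% of the bases these peaks cover (61792 of 807559 bp). The other 1188 peaks, called marked, met H3K4me3 alone (1031), both marks (142) or H3K27me3 alone (15). Of the marked peaks, 885 were under 500 bp wide and 303 were wider.

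NP23 joins the N-terminal part of the nuclear pore protein NUP98 to the C-terminal part of PHF23, which carries a PHD finger. This protein fold can hold the tail of histone H3 when its lysine 4 is trimethylated, so H3K4me3 is the mark that the fusion is known to read. H3K4me3 lies at active and poised promoters, and H3K27me3 is set by Polycomb complexes over silent developmental genes. An NP23 peak without either mark is therefore a site where the listed data give no histone context.

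The study mapped chromatin by immunoprecipitation and sequencing in 4 cytokine-independent lines. Line 961C, of myeloblast type, came from an acute myeloid leukaemia (AML) of an NP23 mouse, and lines 748T and 106A, of lymphoblast type, from NP23 pre-T LBL of 2 other mice, all on C57BL/6. The control without the fusion was a line from an SCL-LMO1 pre-T LBL on a C57BL/6 and C3H hybrid background, so oncogene and strain differ together there. Peak lists for H3K4me3 and H3K27me3 cover all 4 lines, 1 list of each per line, and the NP23 list, made with an antibody to the V5 tag, covers 961C. Each line is from 1 mouse, and no antibody was repeated within a line.

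With 1 library per antibody and line there is no replicate spread, and peaks of 1 library are not replicates. No p-value is given for that reason. Shares carry exact Clopper-Pearson 95% intervals and medians carry exact binomial 95% intervals, which cover counting error alone and treat the peaks as independent. Heights are read pileups. Read totals per library are unknown, so heights were compared within the NP23 list. Coordinates are mm9, counted from 1.

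The share of NP23 peaks without a mark was highest among the narrowest peaks. It was 61.8% (76 of 123, interval 52.6 to 70.4) under 100 bp and 43.2% (221 of 511, 38.9 to 47.7) from 100 to under 150 bp. From 150 to under 200 bp it was 26.1% (21.4 to 31.3), and from 200 to under 500 bp 16.1% (12.5 to 20.2). Among the 304 NP23 peaks of 500 bp or more a single one, 0.329% (0.00833 to 1.82), was unmarked. The share also differed by height, from 42.1% (35.8 to 48.6) of the 240 peaks that reached at most 8 reads to 14.9% (9.46 to 21.9) of the 141 peaks over 30 reads. Width and height are linked in this list, and their parts were not separated. A narrow peak also offers fewer bases for a mark peak to meet, and what part this has in the shares was not tested.

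**Figure D1:**
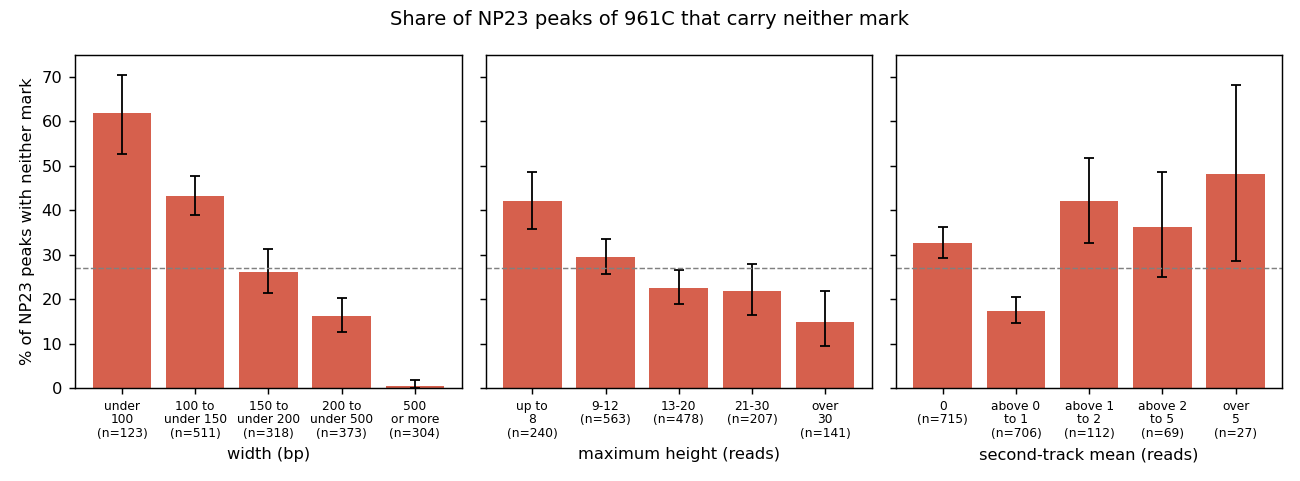
Percent of NP23 peaks of 961C that overlap neither mark, by width in bp, by maximum height in reads and by second-track mean in reads. Bars are shares, whiskers exact 95% intervals, n the NP23 peaks in a class, and the dashed line the 27.1% over the whole list. The share is 61.8% under 100 bp and 0.329% at 500 bp or more.

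Unmarked peaks were narrow, and some widths were frequent among them. Their median width was 105 bp (interval 103 to 109), against 162 bp (160 to 164) for marked peaks under 500 bp and 1079 bp for wider marked ones. The middle 50% of unmarked peaks lay between 101 and 159 bp, and the range was 82 to 638 bp. A width of exactly 101 bp was the most frequent: 77 unmarked peaks had it (17.5%, 14.0 to 21.3), as did 50 marked peaks under 500 bp (5.65%). Over the whole NP23 list the figure was 7.80%.

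The 101-bp width was not a property of NP23 alone. It was the most frequent width in each of the 9 peak lists, at 3.76% to 7.77% of the peaks in the H3K27me3 lists and 0.467% to 1.26% in the H3K4me3 lists. The labels give a mean fragment size of 240 bp for the libraries. No peak caller is named in the sources used here, and what sets the width was not tested.

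Another concentration of widths stood near 160 bp. In the band from 99 to 106 bp lay 167 unmarked peaks (37.9%, 33.3 to 42.6), against 126 marked ones under 500 bp (14.2%). From 150 to 170 bp there were 68 unmarked peaks (15.4%, 12.2 to 19.1) against 171 marked ones (19.3%, 16.8 to 22.1). The narrow band thus held a larger share of the unmarked peaks, and in the other band the intervals of the groups overlapped. Both bands were set after the widths had been seen.

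**Figure D2:**
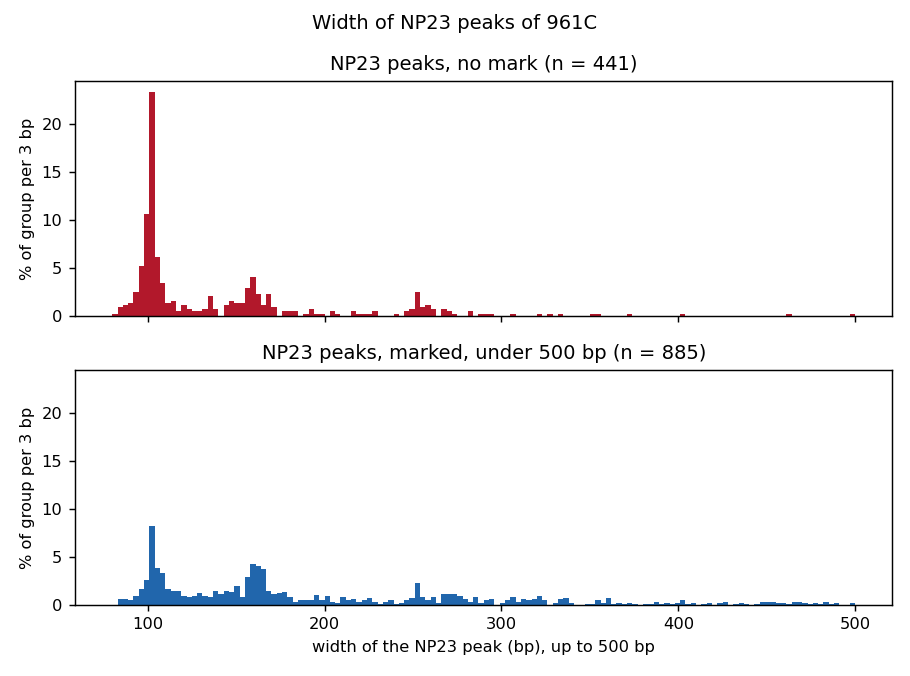
Widths in bp of the 441 unmarked NP23 peaks (top) and of the 885 marked NP23 peaks under 500 bp (bottom), as percent of each group per 3-bp bin. The unmarked peak of 638 bp lies beyond the axis. The tallest bins hold the 101-bp width in both groups, which 17.5% of unmarked peaks had, against 5.65% of these marked ones.

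The shape of the narrow peaks did not set the groups apart. Mean height as a percent of maximum height, which would be 100% for a flat block of reads, had a median of 76.1% in unmarked peaks of 99 to 106 bp and of 77.4% in marked ones. In the band from 150 to 170 bp it was 62.1% in unmarked and 61.8% in marked peaks. Among wider peaks the groups parted: of those from 200 to under 500 bp, the 60 unmarked peaks had a median of 42.1% and the marked ones 57.9%. The share of height that was kept across the peak was thus lower in the wider unmarked peaks.

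Unmarked peaks were low, with a median maximum of 11 reads (interval 11 to 12) and a range of 5 to 55 reads. Marked peaks under 500 bp had a median of 12 reads (12 to 13), and wider marked peaks had 18 reads (17 to 19). At equal width the medians were close: 10 reads in both groups under 100 bp, 10 reads in unmarked and 11 in marked peaks from 100 to under 150 bp, and 15 in unmarked and 17 in marked peaks from 150 to under 200 bp. From 200 to under 500 bp the order turned, with 16.5 reads in unmarked and 12 in marked peaks. In the list of 1629, 19 marked peaks were taller than every unmarked one, up to 103 reads.

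Beside its height, each NP23 peak has mean and maximum values of a second track, whose meaning the files do not state. It was 0 throughout 233 unmarked peaks (52.8%, 48.1 to 57.6), 455 marked peaks under 500 bp (51.4%) and 27 wider marked peaks (8.91%). The figure over all NP23 peaks was 43.9%. Its mean exceeded 1 read in 85 unmarked peaks (19.3%, 15.7 to 23.3), in 118 marked peaks under 500 bp (13.3%) and in 5 wider marked peaks (1.65%), and in 12.8% of the whole list. Read the other way, 32.6% (29.2 to 36.2) of the 715 NP23 peaks with a second-track mean of 0 were unmarked, 17.4% (14.7 to 20.4) of the 706 above 0 and up to 1, 42.0% (32.7 to 51.7) of the 112 above 1 and up to 2, 36.2% (25.0 to 48.7) of the 69 above 2 and up to 5, and 48.1% (28.7 to 68.1) of the 27 over 5. The class above 0 and up to 1 holds most of the wide marked peaks. Among NP23 peaks under 500 bp its share was 28.3% (24.1 to 32.8), against 33.9% (30.3 to 37.5) at 0, and these intervals overlap. At the high end, 13 unmarked and 14 marked peaks had a mean over 5 reads.

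Height and second track went together in the unmarked peaks. Spearman's rho between maximum height and second-track mean was 0.77 over the 441 unmarked peaks, 0.62 over the 885 marked peaks under 500 bp and 0.45 over the 303 wider marked ones, as a description of peaks that share the same libraries. Of the 101 unmarked peaks of at most 8 reads, 97 had a second track of 0. So did 84.9% of the marked peaks of that height, so low NP23 peaks of either group mostly had none. Of the 45 unmarked peaks that reached 21 to 30 reads, 38 had a second-track mean over 1, as did 17 of the 21 over 30 reads. The median second-track means in these taller classes were 1.79 and 6.11 reads in unmarked peaks. In marked peaks of all widths they were 0.544 and 0.657 reads. Where the second track was above 0, mean NP23 height was a median of 11.6 times the second-track mean in unmarked peaks, 18.3 times in marked peaks under 500 bp and 28.1 times in wider marked peaks. By maximum heights the groups were closer, with medians of 9, 10.35 and 10 times in the same order.

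The groups differed in second track among the wider peaks. From 200 to under 500 bp, its median was 0.704 reads in the 60 unmarked peaks and 0.204 in marked ones, and it was 0 in 15.0% of unmarked and 40.6% of marked peaks. The unmarked peaks of this class were also taller, at a median of 16.5 against 12 reads. Height and second track went together, and their parts in this difference were not separated. From 150 to under 200 bp the second track was 0 in 49.4% of unmarked and 55.3% of marked peaks. From 100 to under 150 bp it was 0 in 64.7% of unmarked and 62.1% of marked peaks. What part a raised second track has in calling these peaks was not tested.

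**Figure D3:**
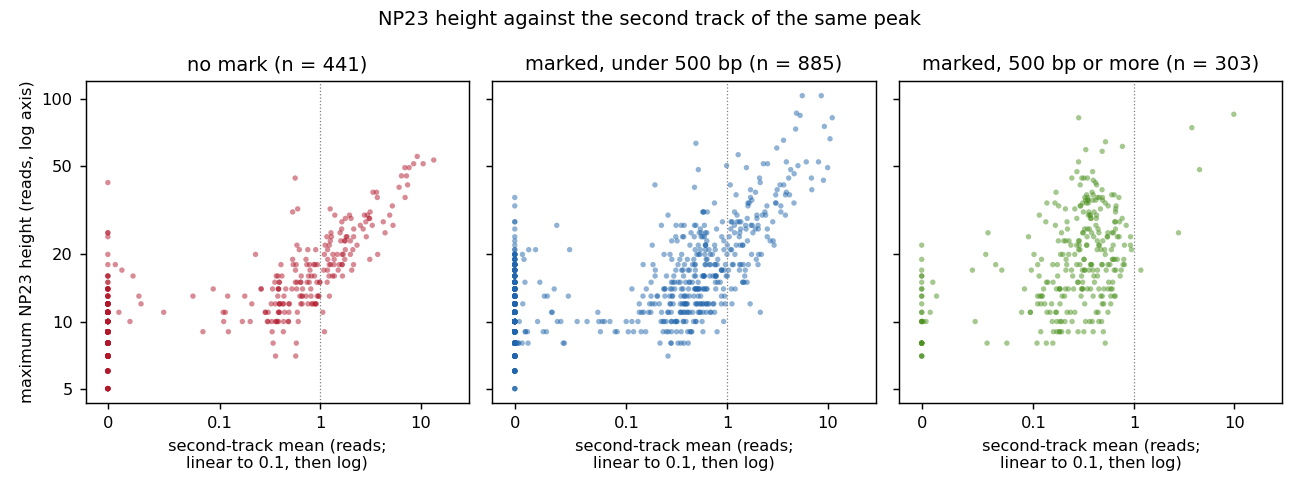
Maximum NP23 height in reads (log axis) against the second-track mean of the same peak in reads (linear to 0.1, then log), 1 point per peak, for unmarked, marked short and marked wide NP23 peaks of 961C. The dotted line marks a mean of 1, beyond which lie 85 unmarked, 118 short marked and 5 wide marked peaks. Tall unmarked peaks lie mostly to the right of it.

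The 10 tallest unmarked peaks reached 42 to 55 reads and were 121 to 498 bp wide. The tallest, on chromosome 9 from 64604782 to 64604950, reached 55 reads with a second-track mean of 9.25 reads. The next, on chromosome 7 from 100234807 to 100235158, reached 53 reads over the highest second track of any unmarked peak, 13.5 reads on average and 25 at most. The peaks on chromosome 4 from 58993434 to 58993554 and chromosome 11 from 112809088 to 112809344 each reached 51 reads, with second-track means of 10.6 and 8.53 reads. In all, 8 of these 10 had a second-track mean over 5 reads.

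The remaining 2 of the tallest had little or no second track. On chromosome 17 from 4626271 to 4626604 a 334-bp peak reached 42 reads with a second track of 0. It lay 281268 bp from the nearest H3K4me3 peak of 961C, 166057 bp from H3K27me3 and 4472939 bp from any other NP23 peak. On chromosome 14 from 104736117 to 104736293 the peak reached 44 reads over a second-track mean of 0.565 reads, 130518 bp from H3K4me3. Both stood alone, at over 100 kb from either mark and from other NP23 peaks.

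The widest unmarked peaks were of mixed kinds. The widest, on chromosome 3 from 121002399 to 121003036, was the single one of 500 bp or more, with 638 bp, a maximum of 30 reads and a second-track mean of 1.40 reads, 6741 bp from H3K4me3 of 961C. The next, on chromosome 1 from 122216326 to 122216823 (498 bp, 49 reads), had a second-track mean of 7.69 reads and is also among the 10 tallest. The third, on chromosome 5 from 115783442 to 115783902 (461 bp), reached 10 reads and lay 285 bp from a marked NP23 peak. The other 7 of the widest 10 were 321 to 401 bp wide.

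The distances of unmarked peaks to H3K4me3 of 961C, the mark the rule used, are given as a description. In 961C the nearest H3K4me3 peak was a median of 129099 bp away (interval 101108 to 152004), with the middle 50% between 31813 and 346644 bp. Within 10 kb of H3K4me3 lay 53 of the 441 (interval 9.13% to 15.4%), against 75.3% of all NP23 peaks, and within 100 kb lay 198 (44.9%), against 84.7%. The whole list includes the peaks at distance 0 that the rule left out, so nothing is read from these contrasts. Counting H3K4me3 peaks of 500 bp or more alone, the median was 161919 bp, and 46294 bp (26957 to 60517) for marked peaks under 500 bp. Most of these short marked peaks thus met no H3K4me3 peak of that width.

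Lists of the other lines, which did not enter the rule, gave similar distances. The median distance from unmarked peaks to H3K4me3 was 156091 bp in 748T (129039 to 193677), 158709 bp in 106A (129152 to 196770) and 148415 bp in the SCL-LMO1 line (133304 to 173086). For marked peaks under 500 bp the medians were 38195, 42098 and 36782 bp in the same lines, and for wider marked peaks 0 bp in each. Of the short marked peaks, 21.1% to 21.6% met H3K4me3 in each of these lines and so lay at 0, and the groups were split on H3K4me3 of 961C. The gap between the groups is thus in part set by the rule. It also differed by width class, given here for 748T. From 150 to under 200 bp the order turned, with medians of 147540 bp in unmarked and 218976 bp in marked peaks. In the other classes unmarked peaks lay farther: 104807.5 against 53084 bp under 100 bp and 191970 against 47735.5 bp from 100 to under 150 bp. From 200 to under 500 bp it was 148030.5 against 2079 bp. For the unmarked peaks, the lines with and without the fusion had overlapping intervals.

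Within 10 kb of H3K4me3 of 748T lay 49 unmarked peaks (11.1%, 8.33 to 14.4), against 39.0% of marked peaks under 500 bp and 41.2% of the whole list. For 106A the count was 48 (10.9%), against 37.4% of short marked peaks and 39.7% of the list. For the SCL-LMO1 line it was 49 (11.1%), against 38.1% and 39.8%. No H3K4me3 peak of any of the 4 lines came within 100 kb at 207 unmarked peaks (46.9%, 42.2 to 51.7), against 13.1% of all NP23 peaks. As 961C is among the 4 lines, this contrast is largely set by the rule.

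**Figure D4:**
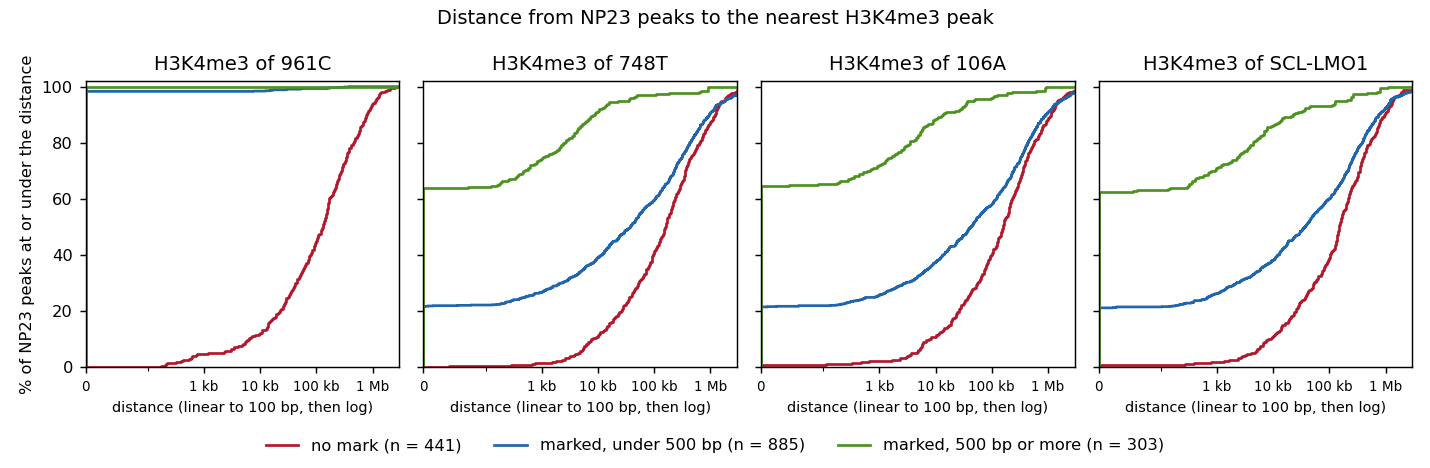
Percent of NP23 peaks of 961C at or under a given distance in bp from the nearest H3K4me3 peak of 961C, 748T, 106A and the SCL-LMO1 line (distance linear to 100 bp, then log). Lines stand for unmarked, marked short and marked wide NP23 peaks, and in 961C all 303 wide marked peaks lie at 0. In the 3 lines outside the rule the unmarked peaks have medians of 148415 to 158709 bp, against 36782 to 42098 bp for short marked peaks.

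Overlap with H3K4me3 of another line was rare. It was found at 1 unmarked peak in 748T (0.227%, 0.00574 to 1.26), 4 in 106A (0.907%, 0.248 to 2.31) and 3 in the SCL-LMO1 line (0.680%, 0.141 to 1.98). The whole NP23 list gave 23.7%, 23.9% and 23.3%, and marked peaks under 500 bp gave 21.6%, 21.5% and 21.1%. The rule removed each peak that met H3K4me3 in 961C, so where lines share H3K4me3 sites the rule itself lowers these counts. No unmarked peak met H3K27me3 of another line (0 of 441, upper bound 0.833%), where the whole list gave 0.368%.

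The unmarked peaks with H3K4me3 in another line number 6. One, on chromosome 5 from 3801438 to 3801538 (8 reads, second track 0), met H3K4me3 of all 3 other lines, and H3K4me3 of 961C began 421 bp away. Those on chromosome 7 from 26541898 to 26542000 (106A) and chromosome 8 from 112231247 to 112231407 (SCL-LMO1) also lay within 1 kb of H3K4me3 in 961C, at 752 and 542 bp. The other 3 were farther from it: chromosome 16 from 22549059 to 22549163 (SCL-LMO1, 19276 bp), chromosome 5 from 147072748 to 147072930 (106A, 28047 bp) and chromosome 6 from 134135790 to 134135948 (106A, 69993 bp). The peak on chromosome 5 at 147072748 reached 49 reads with a second-track mean of 6.97.

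The median distance from unmarked peaks to H3K27me3 of 961C was 246112 bp (203943 to 347868). For NP23 peaks with H3K4me3 alone, which like the unmarked ones do not meet H3K27me3, it was 146022 bp (131675 to 160598), and 185383 bp (169134 to 208815) for those under 500 bp. Close to H3K27me3 no such gap was seen: within 10 kb of it lay 28 unmarked peaks (6.35%, 4.26 to 9.05) and 50 of the 1031 with H3K4me3 alone (4.85%, 3.62 to 6.34), and these intervals overlap. The 14.4% over all NP23 peaks includes the 142 and 15 peaks that overlap H3K27me3 with and without H3K4me3, which the rule left out of the unmarked peaks. Nearness to both marks went together: H3K27me3 came within 10 kb at 9 of the 53 unmarked peaks within 10 kb of H3K4me3 (17.0%, 8.07 to 29.8) and at 7 of the 243 over 100 kb from it (2.88%, 1.17 to 5.84). In the other lines, the median distance to H3K27me3 was 435091 bp in 748T, 716731 bp in 106A and 659574 bp in the SCL-LMO1 line, whose lists are shorter.

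Unmarked peaks were mostly solitary, and by the median so were marked peaks under 200 bp. The nearest other NP23 peak was a median of 691732 bp away (544995 to 745566), against 395881 bp (313645 to 480659) for marked peaks under 500 bp and 297 bp for wider marked ones. Another NP23 peak within 10 kb was found at 20 unmarked peaks (4.54%, 2.79 to 6.92), against 29.0% of short marked peaks and 33.0% of all NP23 peaks. At like width the medians were 648478 bp unmarked and 413334 bp marked under 100 bp, and 726299 and 544376 bp from 100 to under 150 bp. From 150 to under 200 bp they were 596491 and 653489 bp, and from 200 to under 500 bp 520187 and 2909 bp. No 3 unmarked peaks followed each other within 10 kb. The single pair lay on chromosome 13, from 99855463 to 99855568 (10 reads) and from 99855762 to 99855938 (12 reads), 193 bp apart and with a second track of 0 in both.

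A small subset lay close to marked peaks. Of the 20 unmarked peaks with an NP23 neighbour within 10 kb, 18 had a nearest neighbour that met H3K4me3 by at least 1 bp, as did 1173 of all 1629 NP23 peaks (72.0%). Of the 538 NP23 peaks with another within 10 kb, 518 were marked, so most possible close neighbours were marked ones. The nearest neighbour was 500 bp or wider for 5 of the 20. The 20 unmarked peaks reached 7 to 20 reads, with a median of 9.5. Of the 20 unmarked peaks within 1 kb of H3K4me3 of 961C, a set that overlaps with those 20, the nearest H3K4me3 peak held NP23 in 12 cases, whereas 4.96% of all 17696 H3K4me3 peaks held it. That H3K4me3 peak was 2 kb or wider in 9 cases and at most 200 bp wide in 5. Its median width was 1546 bp, against 1033 bp over the whole H3K4me3 list of 961C. A wider peak has more room to hold NP23, and widths were not matched. The 4.96% is therefore not a like baseline, and nothing is read from this contrast.

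Examples beside broad H3K4me3 domains, picked out after their values were seen, reached 7 to 16 reads. On chromosome 3 the peak from 58233039 to 58233131 (8 reads) lay 212 bp beyond a 15102-bp H3K4me3 domain with 3 NP23 peaks. On chromosome 11 the peak from 18906353 to 18906485 (7 reads) lay 476 bp before a 13974-bp domain with 6 NP23 peaks. Also on chromosome 11, the peak from 60599430 to 60599588 (8 reads) lay 583 bp beyond an 11769-bp domain with 5 NP23 peaks. On chromosome 5 the peak from 115233927 to 115234035 (13 reads) lay 384 bp beyond an 8439-bp domain with 5 NP23 peaks. A wider one, the 461-bp peak on chromosome 5 given above (10 reads), lay 659 bp from a 5477-bp domain with 1 NP23 peak. The peak on chromosome 8 from 74113883 to 74113990 (16 reads) lay 216 bp from a 3892-bp domain without NP23. Second-track means of these 6 peaks ranged from 0 to 0.936 reads.

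Few unmarked peaks lay just outside a mark of 961C. Within 1 kb of H3K4me3 lay 20 of the 441 (4.54%, 2.79 to 6.92), and within 1 kb of H3K27me3 lay 3 (0.680%). Over all NP23 peaks the shares were 73.2% and 10.2%, which include the overlapping peaks that the rule left out. Within 1 kb of H3K4me3 of the other lines lay 1.36% (748T), 2.04% (106A) and 1.81% (SCL-LMO1) of unmarked peaks. The nearest unmarked peak to H3K4me3, on chromosome 11 from 106343673 to 106343773 (8 reads), missed it by 22 bp. The next 4, on chromosomes 8, 6, 17 and 3, missed it by 169 to 212 bp, and those on chromosomes 8 and 6 also lay 228 and 188 bp from H3K27me3. On the marked side, the smallest overlap was 12 bp with H3K27me3, on chromosome 6 from 29268680 to 29268775 (20 reads), followed by 32 to 45 bp with H3K4me3 at 4 peaks of 90 to 101 bp. With a mark required to cover 50% of the NP23 peak, 492 peaks were unmarked. With the taller 50% of the mark peaks of 961C alone it was 947, so membership depended on which mark peaks were counted.

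The lowest unmarked peaks lay farthest from H3K4me3, by the median. The median distance to H3K4me3 of 961C was 249088 bp for unmarked peaks of at most 8 reads, 133648.5 bp at 9 to 12 reads, 78748.5 bp at 13 to 20 reads, 72054 bp at 21 to 30 reads and 72669 bp over 30 reads. To H3K4me3 of 748T, which is outside the rule, it was 339461, 152200.5, 121243, 147362 and 129039 bp in the same order. Beyond the lowest class there was thus no steady fall in 748T, and no intervals were computed for these medians. Grouped by distance instead, median height was 11 reads (10 to 13) in the 53 unmarked peaks within 10 kb of H3K4me3 of 961C, 13 reads (11 to 14) in the 145 at 10 to 100 kb and 11 reads (10 to 11) in the 243 farther away. Median widths were 113, 106 and 104 bp in the same order. A second-track mean over 1 was found in 9.43% (3.13 to 20.7), 25.5% (18.6 to 33.4) and 17.7% (13.1 to 23.1). The second track was 0 in 56.6%, 42.8% and 58.0%. The 5 farthest lay 2020816 to 2684271 bp from H3K4me3 and reached 5 to 23 reads. The farthest was on the X chromosome from 119944958 to 119945238.

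Counted as listed peaks, unmarked peaks were spread over the chromosomes more evenly than marked ones. Marked peaks often stood in runs: 37.5% of them had another NP23 peak within 1 kb, against 2.49% of unmarked ones. Each peak of a run was counted on its own, and marked density with such peaks joined was not computed. What part these runs have in the uneven marked density was not tested. Per Mb of chromosome, taken up to the furthest peak end in any list, there were 0.0990 to 0.251 unmarked peaks on the 19 autosomes (median 0.160) and 0.253 to 1.32 marked ones (median 0.368). Chromosome 11 had the most marked peaks, 161, and 19 unmarked ones, so 10.6% (6.48 to 16.0) of its NP23 peaks were unmarked. On chromosome 18, 21 of 44 were unmarked (47.7%, 32.5 to 63.3), and on the X chromosome 21 of 47 (44.7%, 30.2 to 59.9). Unmarked density was 0.231 per Mb on chromosome 18 and 0.156 on chromosome 11, whereas marked density was 0.253 and 1.32 per Mb. Of the remaining unmarked peaks, 3 lay on the Y chromosome and 2 on unplaced sequence of X and Y.

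**Figure D5:**
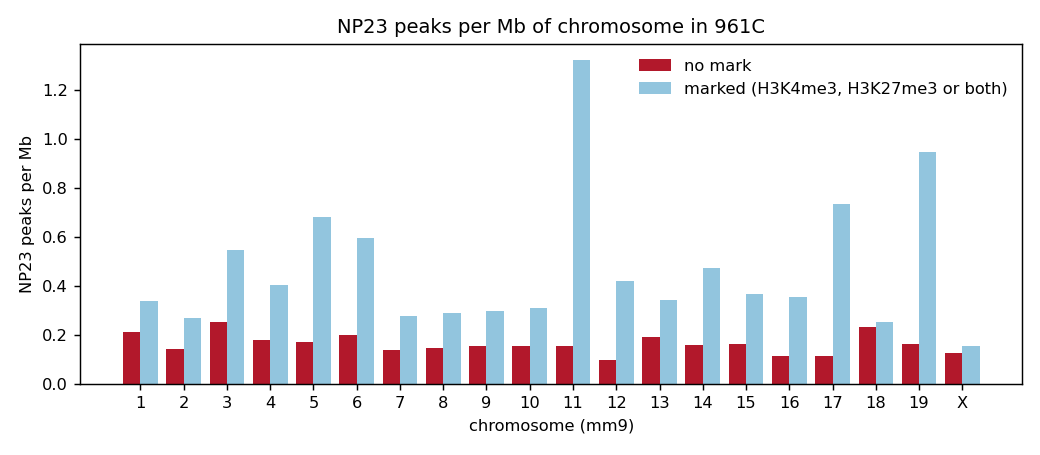
NP23 peaks of 961C per Mb of chromosome, unmarked (left bar) and marked (right bar), for the autosomes and the X chromosome. Unmarked peaks range from 0.0990 to 0.251 per Mb on the autosomes, and marked ones from 0.253 to 1.32 with the highest value on chromosome 11.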

How the data were processed

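The tools named are BWA 0.5.9-r26 and CASAVA 1.9, with mm9 as the genome build, per the submitters' processing notes. No peak caller or calling threshold is named in the sources used here. The 9 peak lists deposited by the authors give start, end and a text field with the mean and maximum pileup height and the same for a second track. Products of mean height and width are whole numbers, within the rounding of the deposited decimals, for 99.8% of NP23 peaks, so heights were read as unscaled. The 4 input samples were not used here.

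Unmarked NP23 peaks share no base with a 961C mark peak. A distance counts the bases between nearest edges. The overlap and distance steps were tested on simulated data. Named regions are the 10 tallest, 10 widest and 10 with the highest second-track mean, the 5 nearest to and farthest from H3K4me3, those with a mark in another line, and close neighbours. The members, lists and classes were chosen with earlier results of these data known. Genes and sequences under the peaks were not analysed here, since the reference tables are of another build. Alternatives varied overlap, mark and NP23 peak selection, joining and chromosomes. Computations used Python 3.11.15, numpy 2.4.6, pandas 2.3.3, scipy 1.17.1 and matplotlib 3.10.9.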

Additional observations from a re-analysis of the deposited data

How the results depend on the processing

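Of 92 recomputed values, 68 stayed within 1.5 times (the count of unmarked peaks) or within the 95% interval of the value reported. Some settings could hardly move a value, since they left nearly the same peaks. Autosomes alone gave 415 unmarked peaks, marks of any of the 4 lines 435 and joining within 1 kb 431, and no value moved under these. The tally is thus not a measure of robustness. With the taller 50% of mark peaks of 961C, ties at the median included, 947 NP23 peaks were unmarked, with a median width of 134 bp and a median distance to H3K4me3 of 215313 bp. With the taller 50% of NP23 peaks the number was 174, median width 155 bp, median height 18 reads, median second-track mean 0.955, second track of 0 in 13.2%, median distance 73120 bp to H3K4me3 and 1509189 bp to other NP23 peaks. With NP23 peaks of 150 bp or more the number was 144, and the values were 177 bp, 15.5 reads, 0.436 reads, 34.7% and, to other NP23 peaks, 1484870.5 bp. With second-track means of at most 1 the median height was 10 reads, the second track was 0 in 65.4% and the distance to other NP23 peaks was 778426 bp. These shifts follow in part from the peaks left out. Requiring 50% coverage gave a median of 96718.5 bp to H3K4me3 and 16.9% within 5 kb (8.16% for the 441 unmarked peaks). Counting marks within 1 kb gave 3.81%, since it removes near peaks. Against H3K4me3 of 500 bp or more alone, added after seeing the data, the median was 161919 bp. The share meeting H3K4me3 of an NP23 pre-T line was 0.907%, and 0.227% to 0.907% with either line left out, the lower value without 106A. Counting marks of all lines gives no value for overlap with other lines, which it sets to 0. No paired analysis was possible because no group comparison was tested.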

Other observations

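Beside the peak on chromosome 17 already given, the tallest unmarked peaks with a second track of 0, picked out after their values were seen, were 162 to 172 bp wide and reached 20 to 25 reads. The peak on chromosome 9 from 70653934 to 70654105 lay 32578 bp from H3K4me3 of 961C. The one on chromosome 18 from 65587070 to 65587237 lay 2397 bp from it, that on chromosome 7 from 52879008 to 52879169 lay 4851 bp away, and that on chromosome 6 from 131327501 to 131327669 lay 8608 bp away. So 3 of these 4 lay within 10 kb of H3K4me3, whereas the taller peak on chromosome 17 lay 281268 bp from it. Of all 441 unmarked peaks, 53 lay within 10 kb. The peaks named here are few and were picked after their values were seen, so nothing is read from this contrast.

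Of the 440 unmarked peaks with another NP23 peak on their chromosome, the nearest one was itself unmarked for 178 (40.5%), met H3K4me3 alone for 202 (45.9%), met both marks for 53 and met H3K27me3 alone for 7 (1.59%). Over the whole NP23 list these classes make up 27.1%, 63.3%, 8.72% and 0.921%. Marked peaks stand closer together: 43.6% of them had another NP23 peak within 10 kb, against 4.54% of unmarked ones. The list shares are therefore not a like baseline, and nothing is read from this contrast.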
